A study of Macaca fascicularis with 12 samples.

Results

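The cell cycle and mitosis genes described here were 47 genes that act when a cell copies its DNA and divides, and 46 of them were measured in iliac arteries of monkeys with small, medium or large atherosclerotic plaques. A gene was taken when a probe carried its symbol alone in the platform annotation, and the brightest such probe stood for the gene. PRC1, which bundles microtubules between separating chromosomes, was the remaining gene, since its only probe shares 2 symbols. The 46 genes comprised 12 of the S phase, when DNA is copied, and 34 of mitosis, and they stood among 18080 genes so named. Each of the 47 symbols is also used in RefSeq's gene annotation of this species (assembly T2T-MFA8v1.1).

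All 12 animals were female cynomolgus monkeys over 20 years old that had eaten a high fat diet for 8 years and had been ovariectomized for 4 years, with no other treatment, so no group is free of the diet or has its ovaries. The small group held 4 animals, of which 2 had no plaque and the others had plaque areas of 0.041 and 0.113 mm2. The medium group held 5 animals with 0.30 to 0.542 mm2, and the large group held 3 animals with 0.61 to 1.003 mm2. Each artery gave 1 RNA sample and 1 array of human probes, so replicates were separate animals, and a probe that differs from the monkey sequence can read too low.

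In a dividing cell, cyclins switch on cyclin-dependent kinases. Thymidylate synthase supplies thymidine for new DNA, the MCM helicase opens the double helix, and cohesin holds the copied chromosomes together until kinetochores have attached them to the spindle. The anaphase-promoting complex then marks cyclin B and securin, which keeps cohesin from being cut, for destruction, and the cell divides. In the artery wall, smooth muscle cells, macrophages, T cells and endothelial cells can all divide during plaque growth, and these genes do not tell which cell type does so.

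Values are log2 of the deposited intensity, where 0 lies close to the median probe of an array, and 1 unit is a 2-fold difference. Intensities below 0.111 were raised to it (log2 -3.17), and a gene near this floor can differ by more than its value shows. Array medians lay between 1.00 and 1.01, and the 99th percentile of small artery 1 was 196, against 114 to 148 on the other arrays. The smooth muscle markers ACTA2, smooth muscle actin, and MYH11, smooth muscle myosin, were bright in all arteries. ACTA2 ran from 7.40 to 9.38 and MYH11 from 8.16 to 9.59. Not every smooth muscle marker was bright, as described further below. Of the 46 cell cycle genes, 9 were at the floor in at least 1 artery, and levels of different probes cannot be compared as amounts of RNA. These are whole pieces of artery, in which fewer cells of a type and less RNA per cell cannot be told apart.

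Medium plaques were set against small ones to ask which genes differ between an artery with little or no plaque and one with an established plaque. In medium plaques 13 of the 46 genes were higher and none was lower (limma, adjusted p under 0.05 over all tested probes). Of all genes, 3.6% were called higher and 1.6% lower in this comparison. The 13 comprised 11 of 34 mitosis genes and 2 of 12 S phase genes. The median difference was 0.71 for the mitosis genes and 0.28 for the S phase genes, against -0.03 for all genes. At an unadjusted p under 0.05, 23 of the 46 (50.0%) were higher and 0 were lower, against 12% and 11% of all genes. Every medium artery lay above every small one for 16 of the 46 genes, a separation that 6.41% of all genes showed, and for 0 of the 46 did every medium artery lie below, against 4.73% of all genes.

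**Figure D1:**
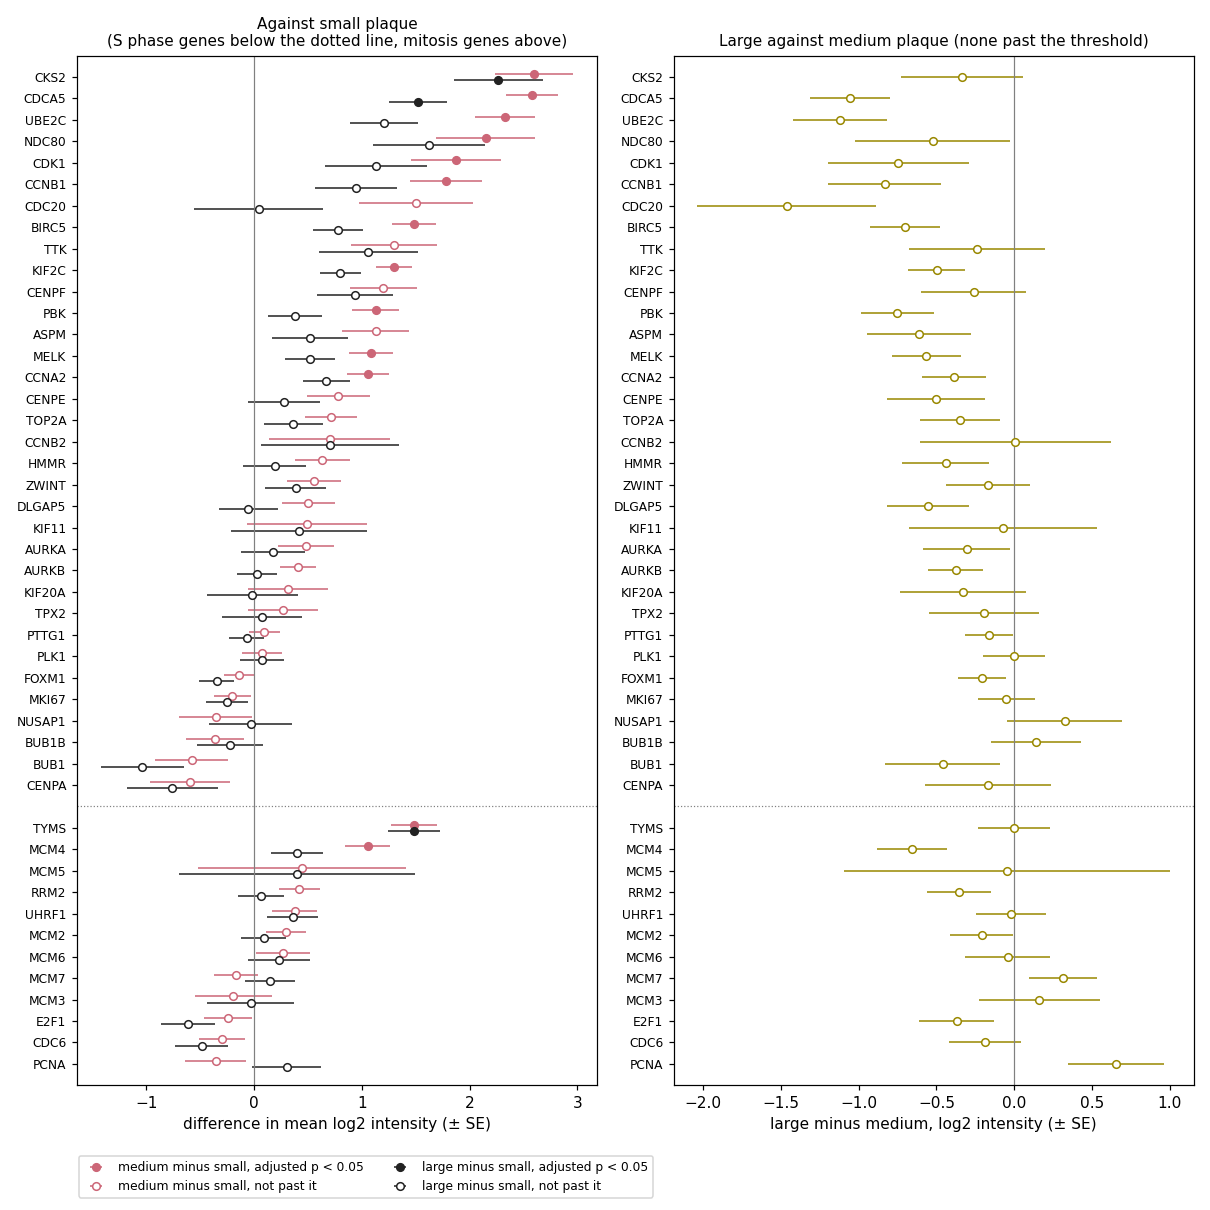
Differences in mean log2 intensity (± SE) of the 46 genes, S phase genes below the dotted line and mitosis genes above it; medium and large are each set against the same 4 small arteries on the left, and large against medium on the right, and filled points passed an adjusted p of 0.05. In medium against small 13 genes passed, in large against small 3, and in large against medium 0.

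The kinase CDK1, its cyclins and the subunit CKS2 had 4 higher genes of 5. CKS2 is a small protein that docks the kinase to its substrates. Its log2 levels were 3.20, 2.94, 1.86 and 3.86 in the small arteries, 6.14, 5.35, 4.98, 5.84 and 5.50 in the medium ones and 4.82, 5.32 and 5.55 in the large ones. The highest small artery lay below the lowest medium and the lowest large artery. CKS2 was higher by 2.60 ± 0.36 in medium than in small plaques (SE, n = 5 and 4; limma, Benjamini-Hochberg adjusted p = 0.00287), or 6.06-fold. Its close relative CKS1B, looked up after these values were seen, differed by -0.41 (unadjusted p = 0.125).

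CDK1, the kinase that drives entry into mitosis, read 0.48, 0.19, -0.87 and 0.57 in small plaques, 3.32, 2.14, 1.36, 1.90 and 1.12 in medium plaques and 1.39, 1.07 and 1.20 in large plaques. Medium artery 1 stood highest, and even the lowest medium artery lay above all small ones. The difference between medium and small was 1.88 ± 0.42 (adjusted p = 0.0322), or 3.67-fold. Its partner CCNB1, cyclin B1, read 1.85, 1.65, 0.36 and 2.09 in small, 3.98, 3.18, 2.83, 3.29 and 3.04 in medium and 2.20, 2.65 and 2.44 in large plaques. The 3 groups did not overlap, with the large arteries between the other groups, and cyclin B1 was higher by 1.78 ± 0.33 in medium than in small plaques (adjusted p = 0.0153). CCNA2, cyclin A2, which acts in S phase and early mitosis, was higher by 1.06 ± 0.19 (adjusted p = 0.0125), with small arteries from 0.34 to 1.10 and medium arteries from 1.57 to 2.07. The CCNA2 call was lost when replicate number was added to the fit (adjusted p = 0.0658). CCNB2, cyclin B2, was at the floor in 3 arteries and did not pass, at 0.70 ± 0.56 (adjusted p = 0.556). The CDK1 call was lost without small 2 (adjusted p = 0.0726), small 3 (0.0691), medium 2 (0.0586) or medium 4 (0.0665). The CDK1 difference was 1.91, 1.55, 1.83 and 1.89 in these fits, beside 1.88 with all arteries. In each of these fits the share of all genes called higher was also below the 3.6% of the main fit. The CDK1 call was lost as well with array weights on all 12 arteries (difference 1.64, adjusted p = 0.0585). Fitting only the 2 groups compared lost it too (adjusted p = 0.065).

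Among the 3 partners of the anaphase-promoting complex, UBE2C was called. UBE2C, the enzyme that passes ubiquitin to the complex's targets, read 0.48, -0.28, -0.59 and 0.42 in small, 2.24, 2.07, 2.09, 2.90 and 2.36 in medium and 0.70, 1.34 and 1.60 in large plaques. Each of the 3 groups held its own range, with large plaques in the middle. UBE2C was 5.02-fold higher in medium than in small plaques, a log2 difference of 2.33 ± 0.28 (adjusted p = 0.00125). CDC20, the complex's activator in mitosis, had 2 arteries at the floor and a difference of 1.50 ± 0.53 that did not pass (adjusted p = 0.154). PTTG1, securin, was well above the floor in all 12 arteries, between 1.71 and 2.20, and differed by 0.09 ± 0.14 (adjusted p = 0.779).

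Of the 5 genes of chromosome structure, cohesion and the chromosomal passenger complex, 2 were higher. CDCA5, sororin, which keeps cohesin on copied chromosomes, had the smallest p of the 46 genes. It read 0.86, 0.14, 0.07 and 0.21 in small, 2.67, 2.51, 2.77, 3.54 and 3.01 in medium and 1.68, 1.72 and 2.11 in large plaques. Gaps separated all 3 groups, and the large arteries again lay in between. The difference between medium and small was 2.58 ± 0.24 (adjusted p = 0.000345), or 5.97-fold.

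BIRC5, survivin, a subunit of the passenger complex that corrects faulty spindle attachments, read 0.22, -0.47, -0.19 and 0.14 in small, 1.34, 1.20, 1.68, 1.55 and 1.26 in medium and 0.27, 0.77 and 1.06 in large plaques. All medium arteries lay above all large ones, and the lowest large artery lay just above the highest small one. Survivin was higher by 1.48 ± 0.21 in medium than in small plaques (adjusted p = 0.00295), or 2.79-fold. AURKB, the kinase of the same complex, differed by 0.41 and did not pass (adjusted p = 0.211). The dimmer probe of AURKB differed by 0.08 (adjusted p = 0.836). TOP2A, the topoisomerase that untangles copied chromosomes, read -0.14, -0.20, 0.11 and -0.43 in small, 1.30, 0.61, 0.23, 0.41 and 0.20 in medium and 0.53, -0.11 and 0.17 in large plaques. Its medium arteries lay above the small ones without overlap, but the difference of 0.71 ± 0.24 did not pass (adjusted p = 0.134).

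At the kinetochore, 1 of 8 genes was called. NDC80, a long rod that grips microtubules, read -1.96, -3.17, -2.23 and -1.07 in small, 1.46, -0.09, -0.84, 0.06 and -0.39 in medium and -0.42, -0.37 and -0.66 in large plaques. Small artery 2 was at the floor, and all medium and large arteries lay above all small ones. NDC80 was higher by 2.15 ± 0.46 in medium than in small plaques (adjusted p = 0.0266). The call was lost without small 1 (adjusted p = 0.0519), small 2 (0.0726), small 3 (0.0589) or medium 4 (0.0600). It was also lost with replicate number in the fit (0.0517). On the log2(value + 0.5) scale the NDC80 difference was 1.08. The NDC80 rod is a complex of 4 proteins, and its other subunits were on the list of further mitosis genes. NUF2 was higher by 2.44 ± 0.32 (adjusted p = 0.00203) and SPC25 by 2.74 ± 0.37 (adjusted p = 0.00242). SPC24, the last subunit, looked up after the others were seen, differed by 0.20 (unadjusted p = 0.534). CENPF and the checkpoint kinase TTK, named here because their medium arteries all lay above the small ones, differed by 1.20 (adjusted p = 0.0594) and 1.30 (adjusted p = 0.107). The spindle checkpoint genes BUB1 and BUB1B and the centromere histone CENPA were at the floor in 4, 6 and 3 arteries and differed by -0.58, -0.37 and -0.59, none past the threshold.

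Among the 10 genes of spindle motors and spindle proteins, KIF2C was called. KIF2C, a kinesin that takes microtubules apart at kinetochores, read 0.51, 0.76, 0.55 and 0.82 in small, 2.20, 1.77, 1.72, 2.24 and 1.86 in medium and 1.40, 1.28 and 1.69 in large plaques. The large arteries sat between the small and medium ones with no overlap. The difference between medium and small was 1.30 ± 0.17 (adjusted p = 0.00203), or 2.46-fold. Of the other 9 genes 8 had a positive difference, and 0 of the 9 passed. KIF15, a spindle motor on the further mitosis list, was higher by 2.15 ± 0.32 (adjusted p = 0.00467).

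PBK and MELK, protein kinases made mainly in dividing cells, were both higher. PBK lay not far above the floor, with -2.36, -3.11, -2.26 and -2.25 in small, -1.0, -1.25, -1.56, -1.24 and -1.77 in medium and -2.09, -1.98 and -2.27 in large plaques. Its large arteries overlapped the small ones and lay below all medium ones, and it was higher by 1.13 ± 0.22 in medium than in small plaques (adjusted p = 0.0172). The size depended on how low values were treated: it was 0.67 with the floor at the 20th percentile and 0.39 on the log2(value + 0.5) scale, both still called. MELK read -0.99, -0.69, -1.08 and -0.83 in small, 0.84, 0.12, -0.19, 0.01 and 0.15 in medium and -0.51, -0.40 and -0.21 in large plaques. The lowest medium artery lay only just above the highest large one, and MELK was higher by 1.09 ± 0.20 in medium than in small plaques (adjusted p = 0.0148). On the log2(value + 0.5) scale this was 0.67, and without small 4 and medium 5 together the call was lost (adjusted p = 0.0628). The MELK call was also lost with replicate number in the fit (adjusted p = 0.0746). FOXM1, the transcription factor that switches on many mitosis genes, read between 1.14 and 1.40 in medium and between 1.23 and 1.69 in small plaques, a difference of -0.14 ± 0.14 (adjusted p = 0.656).

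**Figure D2:**
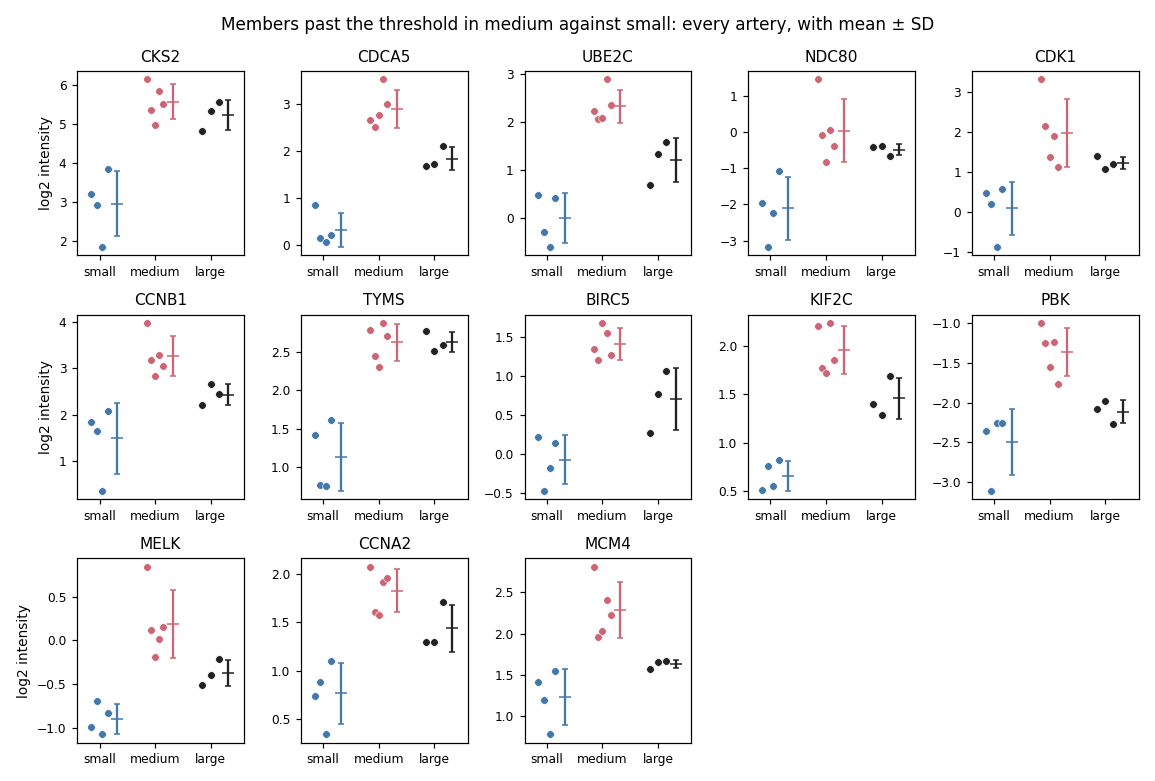
Log2 intensity of the 13 genes that were higher in medium than in small plaques, 1 point per artery (n = 4 small, 5 medium and 3 large), with bars of mean ± SD beside the points. For each gene every medium artery lies above every small one, and for 8 of the 13 every large artery lies below every medium one. The 13 were chosen for high values in the medium arteries, which favours both separations. Over all genes these separations were seen in 6.41% and 3.26%.

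In S phase, the called genes were TYMS and MCM4. TYMS, thymidylate synthase, read 1.41, 0.77, 0.76 and 1.61 in small, 2.78, 2.45, 2.31, 2.87 and 2.70 in medium and 2.76, 2.51 and 2.59 in large plaques. The large arteries lay within the range of the medium ones, and both lay above the small ones. TYMS was higher by 1.48 ± 0.21 in medium than in small plaques (adjusted p = 0.00334), or 2.80-fold.

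MCM4, a subunit of the replicative helicase, read 1.41, 1.19, 0.78 and 1.55 in small, 2.81, 1.96, 2.04, 2.41 and 2.23 in medium and 1.57, 1.66 and 1.66 in large plaques. The large arteries lay just above the small ones and below all medium ones. MCM4 was higher by 1.05 ± 0.21 in medium than in small plaques (adjusted p = 0.0197). The call was lost without small 2 (adjusted p = 0.0566) and with replicate number in the fit (0.053). The partners of MCM4 in the ring of 6 subunits were not called. MCM2 differed by 0.30 ± 0.19 (adjusted p = 0.431), with 3.00, 2.67, 3.12 and 2.72 in small and 3.04, 2.83, 3.29, 3.46 and 3.26 in medium plaques, so that the groups overlapped. MCM5 ranged from -2.82 to 2.47 within the medium group alone, and its difference of 0.44 had an SE of 0.96. MCM3 and MCM7 were below 0 in all 12 arteries and differed by -0.20 and -0.17, and MCM6 differed by 0.27.

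PCNA, the ring that holds DNA polymerase on the template, could not be judged well, since its probe was at the floor in 3 arteries and ran from -3.17 to -1.78 in all 12. It differed by -0.35 ± 0.28 between medium and small plaques (adjusted p = 0.552). RRM2, which makes deoxynucleotides, differed by 0.42 (adjusted p = 0.268), and its dimmer probe by -0.06. The levels of E2F1, a transcription factor of S phase entry, and CDC6, which loads the helicase, differed by -0.24 and -0.30, neither past the threshold.

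MKI67, the gene of the Ki-67 protein by which pathologists count dividing cells, was among the genes that were not called. It read 4.21, 3.80, 4.25 and 3.57 in small, 3.62, 3.67, 3.73, 3.81 and 3.94 in medium and 3.73, 3.80 and 3.58 in large plaques. The 3 groups overlapped, and the difference between medium and small was -0.20 ± 0.17 (adjusted p = 0.571). PLK1, a master kinase of mitosis, was also well above the floor, between 4.39 and 5.13 in all 12 arteries, and differed by 0.07 ± 0.18 (adjusted p = 0.871). A dimmer probe of PLK1 differed by 0.71 ± 0.26 (adjusted p = 0.173), so the 2 probes of this gene read differently. For MKI67 no second single-symbol probe was measured. Whether these human probes read the monkey transcripts was not tested.

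**Figure D3:**
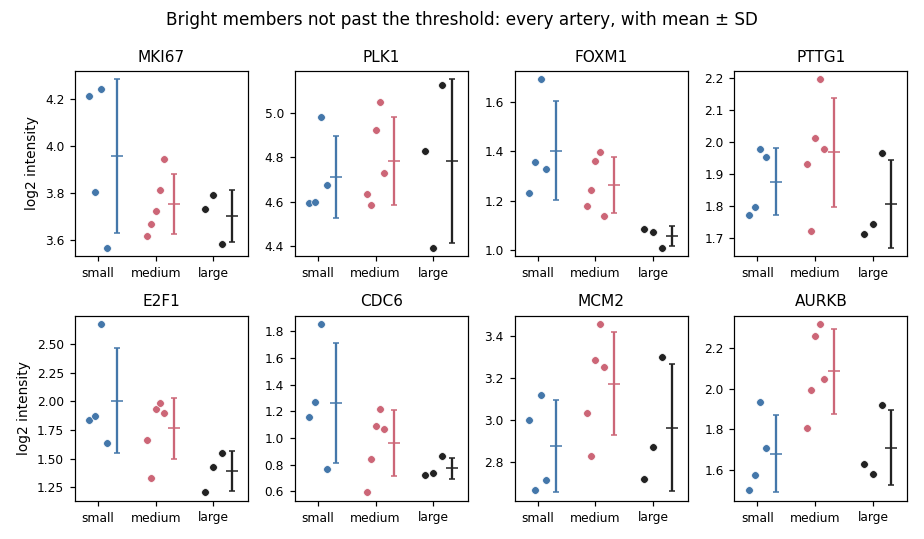
Log2 intensity of 8 genes above the floor in all arteries that did not pass in any comparison, 1 point per artery, with bars of mean ± SD beside the points; each panel has its own vertical scale. For MKI67 and PLK1 the groups overlap, and for FOXM1 and E2F1 the 3 large arteries lie below the 4 small ones.

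Large plaques were then set against the same 4 small arteries, so both comparisons share their controls. Against small plaques, 3 of the 46 genes (6.52%) were higher in large plaques, and 0 were lower, where 1.91% of all genes were called higher and 0.254% lower. At an unadjusted p under 0.05, 13 of the 46 (28.3%) were higher and 2 (4.35%) lower, against 11.1% and 9.55% of all genes. The 3 were CKS2, at 2.27 ± 0.41 (SE, n = 3 and 4; limma, adjusted p = 0.0232), CDCA5, at 1.52 ± 0.27 (adjusted p = 0.0208), and TYMS, at 1.48 ± 0.24 (adjusted p = 0.0134). For CKS2 this was 4.81-fold, beside 6.06-fold in medium plaques, and for CDCA5 it was 2.87-fold, beside 5.97-fold. The other 10 genes called in medium plaques had positive differences here too, from 0.38 for PBK (adjusted p = 0.492) to 1.62 for NDC80 (adjusted p = 0.153), and UBE2C differed by 1.21 ± 0.32 (adjusted p = 0.0864). The median difference was 0.37 over the mitosis genes and 0.19 over the S phase genes, against -0.05 over all genes.

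Every large artery lay above every small one for 14 of the 46 genes, against 9.42% of all genes, and below for 3 (E2F1, FOXM1 and BUB1), against 8.94%. The calls in large against small plaques did not hold with each artery left out. Without large 1 or without large 3 the count of 3 fell to 0, and without small 2 it was 1. The share of all genes called higher fell too, from 1.91% to 0.47% without large 1, 0.43% without large 3 and 0.868% without small 2. Without large 3, for example, TYMS differed by 1.50 (adjusted p = 0.0713), CDCA5 by 1.38 (0.117) and CKS2 by 2.11 (0.120). E2F1 differed by -0.61 ± 0.25 (adjusted p = 0.262), with 1.84, 1.87, 2.67 and 1.64 in small and 1.21, 1.43 and 1.55 in large plaques. FOXM1 differed by -0.35 ± 0.16 (adjusted p = 0.320).

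The direct comparison of large with medium plaques called 0 of the 46 genes in limma, and likewise 0% of all genes in either direction. At an unadjusted p under 0.05, 0 of the 46 genes had a higher value in large plaques and 9 (19.6%) a lower one, 8 of mitosis and 1 of S phase, against 2.76% and 2.27% of all genes. The difference was negative for 31 of 34 mitosis genes and for 9 of 12 S phase genes, beside 9551 of 18080 genes in all. The median was -0.36 over the mitosis genes, -0.04 over the S phase genes and -0.02 over all genes. Every large artery lay below every medium one for 10 of the 46 genes, against 3.26% of all genes, and above for 0, against 2.47%. All 13 genes that were higher in medium than in small plaques had negative values here, but the medium arteries entered both comparisons.

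The genes of smallest p between large and medium plaques were CDCA5, UBE2C, PBK and BIRC5. CDCA5 differed by -1.06 ± 0.26 (SE, n = 3 and 5; 95% interval -1.62 to -0.50; unadjusted p = 0.00143, limma adjusted p = 0.716). UBE2C differed by -1.12 ± 0.30 (interval -1.78 to -0.46; adjusted p = 0.793), PBK by -0.75 ± 0.24 (interval -1.27 to -0.24; adjusted p = 0.874) and BIRC5 by -0.70 ± 0.23 (interval -1.19 to -0.22; adjusted p = 0.885). For each of these 4 genes the 3 large arteries lay below the 5 medium ones, and none of the differences passed the adjustment over all tested probes. For TYMS the difference was close to 0, with an interval from -0.50 to 0.50, so differences of either sign within these bounds were not excluded. MKI67 differed by -0.05, with an interval from -0.45 to 0.35. PCNA, close to the floor, had a positive value of 0.66 (unadjusted p = 0.0541).

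Plaque area gave the same values in a continuous form. Across the 12 arteries 0 of the 46 genes passed for a slope of log2 intensity on area in limma, where 0.951% of all genes had a positive slope that passed and 0.127% a negative one. At an unadjusted p under 0.05, 6 slopes (13%) were positive and 0 negative, against 11.1% and 9.47% of all genes, so the share of positive slopes was near that of all genes. TYMS had the lowest adjusted p, at 0.0585, with a slope of 1.90 ± 0.41 per mm2. Without medium artery 1 a single S phase gene passed, where 2.06% of all genes had a positive slope that passed. CKS2 had a slope of 2.78 ± 0.82 (adjusted p = 0.125), CDCA5 of 2.15 ± 0.82 (adjusted p = 0.218) and UBE2C of 1.66 ± 0.82 (adjusted p = 0.350). Over the 8 medium and large arteries alone, 0 of the 46 genes and 0% of all genes passed in limma, and at an unadjusted p under 0.05, 0 slopes were positive and 4 (8.70%) negative, against 3.08% and 2.19% of all genes. The median slope there was -0.58 per mm2 over the mitosis genes and -0.22 over the S phase genes, against 0.52 and 0.20 over all 12 arteries. Without medium artery 1 the medians over the 8 arteries were -0.34 and 0.01.

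**Figure D4:**
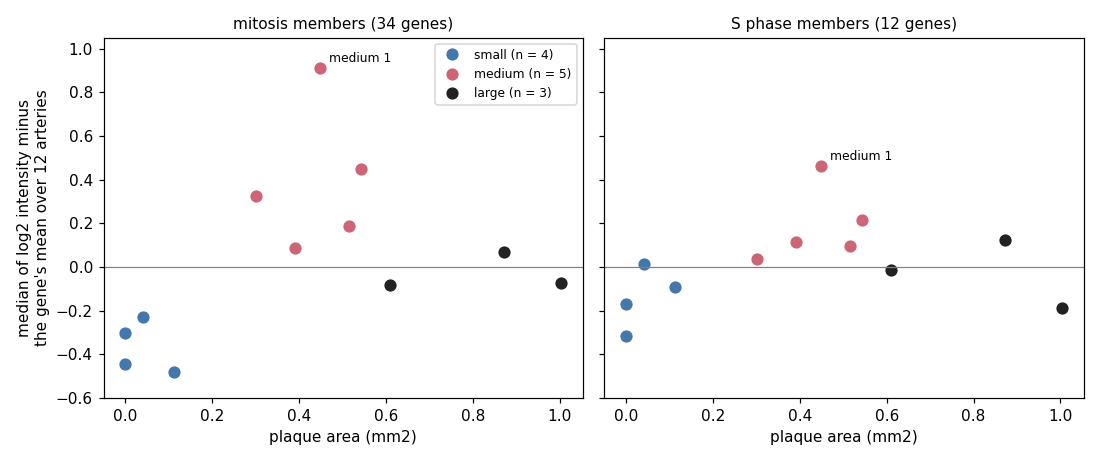
For each artery, the median over the 34 mitosis genes (left) and the 12 S phase genes (right) of log2 intensity minus the gene's mean over the 12 arteries, against plaque area in mm2. The mitosis medians are negative in all 4 small arteries, between 0.09 and 0.91 in the medium ones and between -0.08 and 0.07 in the large ones.

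Within the medium group, artery 1, with a plaque of 0.448 mm2, had the highest mitosis level. Relative to each gene's mean, the median of the mitosis genes was 0.91 there, beside 0.32, 0.09, 0.45 and 0.19 in medium arteries 2 to 5. The corresponding medians were -0.48, -0.44, -0.23 and -0.30 in the small arteries and -0.07, -0.08 and 0.07 in the large ones. Medium artery 1 was the highest of its group for 19 of 34 mitosis genes (55.9%), against 22.4% of all genes, while medium artery 2 was the highest for 0 of the 46 genes, against 16.1%. CDK1 at 3.32, NDC80 at 1.46 and TOP2A at 1.30 showed this in medium artery 1, while CDCA5 and UBE2C were highest in medium artery 4, at 3.54 and 2.90. Without medium artery 1 the medium against small count was still 13, and the median over the mitosis genes was 0.54 in place of 0.71. The large against medium median over the mitosis genes was -0.21 in place of -0.36 without it. The S phase medians were flatter, from -0.32 to 0.01 in small, 0.04 to 0.46 in medium and -0.19 to 0.12 in large arteries.

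Further genes of the same pathways were also measured. Of 30 other replication genes, 3 (10%) were higher in medium than in small plaques and 0 lower, with a median of 0.27. Of all genes, 3.6% were called higher and 1.6% lower. The 3 replication genes were FEN1, which trims Okazaki fragments, at 1.53 ± 0.23 (adjusted p = 0.00435), ASF1B, a histone chaperone, at 1.19 (adjusted p = 0.0229), and RFC2, a subunit of the clamp loader that places PCNA on DNA, at 1.77 (adjusted p = 0.0446). Of 55 other mitosis genes, 9 (16.4%) were higher and 0 lower, with a median of 0.36. Besides NUF2, SPC25 and KIF15 these included NCAPG, a condensin subunit that compacts chromosomes, at 2.02 ± 0.38 (adjusted p = 0.0160). In large against small plaques 0 genes of either list passed in limma, where at an unadjusted p under 0.05, 7 replication genes (23.3%) and 11 mitosis genes (20.0%) were higher and 2 and 3 lower, against 11.1% and 9.55% of all genes. Against medium plaques the large arteries differed by -1.07 in NUF2, -0.92 in SPC25 and -1.01 in NCAPG, none past the threshold.

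The genes that act before S phase gave few calls. Of 25 genes of the G1 cyclins, their kinases and the RB and E2F family, 0 passed in medium against small plaques in limma, with 3 (12%) higher and 2 (8.00%) lower at an unadjusted p under 0.05, near the shares of all genes, and a median of 0.11. Of 6 inhibitors of cyclin-dependent kinases, 0 passed, and 1 (16.7%) was lower at an unadjusted p under 0.05, near the 11% of all genes. That gene was CDKN1C, the inhibitor p57, with 7.40, 6.45, 7.14 and 6.65 in small, 5.15, 6.53, 6.16, 5.58 and 5.65 in medium and 6.62, 6.57 and 5.85 in large plaques. The groups overlapped, and p57 differed by -1.10 ± 0.30 between medium and small plaques (adjusted p = 0.0738) and by 0.53 between large and medium ones (unadjusted p = 0.129). CDKN1A, the p53 target p21, differed by 0.89 ± 0.54 (adjusted p = 0.415), CDKN1B, p27, by 0.45 (adjusted p = 0.351) and CDKN2A, whose gene makes p16, by -0.19 (adjusted p = 0.655). Of 13 checkpoint and p53 response genes 1 (7.69%) was called higher, against 3.6% of all genes. It was CHEK1, a kinase that guards stalled replication forks, at 1.56 ± 0.36 (adjusted p = 0.0395).

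Macrophage markers, and fewer T cell markers, were also higher in medium than in small plaques. Of 18 macrophage markers 10 (55.6%) were called higher in medium plaques (median 2.27) and 9 (50.0%) in large plaques (median 2.01). The shares of all genes called higher were 3.6% and 1.91%. In each comparison 4 of the 18 had negative differences. At an unadjusted p under 0.05 in limma, 12 were higher and 2 (11.1%) lower in medium plaques, against 12% and 11% of all genes. In large plaques 13 were higher and 2 (11.1%) lower, against 11.1% and 9.55% of all genes. The summed intensity of the 18 macrophage markers ran from 100 to 156 in small, 328 to 661 in medium and 347 to 521 in large arteries. CD163, a scavenger receptor of macrophages, was higher by 2.68 ± 0.36 in medium and by 2.37 ± 0.41 in large plaques (adjusted p = 0.00262 and 0.0189), whereas CD68 differed by -0.44 and -0.66 (adjusted p = 0.648 and 0.565). Of 13 T cell markers 3 (23.1%) were higher in medium plaques and 0 in large plaques in limma. At an unadjusted p under 0.05, 5 T cell markers (38.5%) were higher in large plaques, against 11.1% of all genes. Their summed intensity ran from 16.7 to 38.3 in small, 42.4 to 87.7 in medium and 35.6 to 81.8 in large arteries. The macrophage marker ITGAM was at the floor on 2 arrays and LAPTM5 on 1, and the T cell marker CD4 was at the floor on 3.

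Of 9 B and plasma cell markers 0 passed in medium against small plaques in limma (median 0.14). At an unadjusted p under 0.05, 3 of them (33.3%) were higher, against 12% of all genes. All 13 contractile smooth muscle markers had negative differences against small plaques. Of the 13 contractile markers 2 were called lower in limma in medium plaques (median -1.17) and 1 in large plaques (median -0.85). The shares of all genes called lower were 1.6% and 0.254%. At an unadjusted p under 0.05, 9 of them (69.2%) were lower in medium plaques, against 11% of all genes. In large plaques 6 (46.2%) were lower by that measure, against 9.55% of all genes. Their summed intensities were 2297 to 3197 in small, 892 to 1885 in medium and 1198 to 2126 in large arteries. ACTG2 was at the floor on 1 array. MYH11 differed by -0.67 ± 0.18 in medium plaques (adjusted p = 0.0657) and ACTA2 by -0.61 ± 0.37 (adjusted p = 0.418). Between large and medium plaques, where 31 of 34 mitosis genes had negative values and 0 passed, the macrophage median was 0.00, the T cell median -0.22 and the contractile median 0.25, and 14 of 15 immediate early genes, which respond quickly to handling or stimuli, had positive values (median 0.34). None of the genes on these 4 lists, and 0% of all genes, was called in limma in that comparison. At an unadjusted p under 0.05, 4 immediate early genes (26.7%), 1 macrophage (5.56%) and 1 contractile marker (7.69%) were higher, against 2.76% of all genes. The immediate early genes summed to 146 to 280 in medium and 249 to 406 in large arteries. Medium artery 1 was also the highest of its group for 8 of the 18 macrophage markers (44.4%), against 22.4% of all genes. It had the highest summed macrophage intensity of the 12 arteries, a sum in which bright markers weigh most. Relative to each gene's mean, its macrophage median was 0.84, below 1.02 in medium artery 5 and 0.87 in large artery 3. The part of these cell types and genes in the values of the cell cycle genes was not tested.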

How the data were processed

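The cell cycle genes and all other gene lists were chosen with earlier results of these data known, and the grouping by role was made after their values were seen. Per the labels' protocols, total RNA of 12 iliac arteries was amplified to biotinylated cRNA and hybridized to CodeLink human arrays with 1 dye. The deposited values are linear intensity values, which the authors had scaled so that array medians lie close to 1, as the values show; the sources used here do not give the image software, background step or scaling formula. The number of arrays limits the precision.

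Of 54359 probes, 479 were empty, and 53877 had a value for 2 or more animals in every group and were tested. Values below the 5th percentile of positive values, 0.111, were set to it (5.45% of values), and log2 was taken with no further normalization. Of the tested probes 23267 had 1 gene symbol in the platform annotation, which can be old, 900 had several and 29710 were unnamed here. Of the 18080 gene symbols 14530 are in the macaque annotation of assembly T2T-MFA8v1.1, used for names only.

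limma 3.58.1 in R 4.3.3 (lmFit with 3 group means over 12 arrays, eBayes) gave two-sided p-values, with Benjamini-Hochberg adjustment across the tested probes at a threshold of 0.05; slopes on area were fitted the same way. The fits were tested on simulated data. Named genes were the called genes, MKI67, TOP2A, PCNA, CDK1, MCM2 and CCNB1, the 4 genes of smallest p between large and medium plaques, up to 4 of smallest p of each other list, and fixed inhibitors and cell markers; CCND1 of that rule was not analysed here. Other members were named as examples after their values were seen. Alternatives covered scaling, floor, probe choice, variance model, replicate block, area scale and each artery left out.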

Additional observations from a re-analysis of the deposited data

Results flagged for a closer look

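In groups of 4 or 5 arteries, the highest or lowest value was compared with its nearest neighbour relative to the range of the group, and 3 of 98 groups of the cell cycle genes had an artery that stood apart. About 5% of such groups do so by chance. DLGAP5, a spindle protein, read 0.97 in medium artery 1, while the other medium arteries read -0.25 to 0.07, and its gap was 0.739 of the range. PBK read -3.11 in small artery 2, while the other small arteries read -2.36 to -2.25 (0.878 of the range). UHRF1, which keeps DNA methylation in place after replication, read -0.62 in medium artery 2, while the other medium arteries read -0.19 to -0.03 (0.728 of the range).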

How the results depend on the processing

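In medium against small plaques 8 of the 13 calls (TYMS, UBE2C, BIRC5, CDCA5, CCNB1, KIF2C, PBK and CKS2) passed under each alternative that was run, and 0 genes passed in large against medium plaques under any. The count of 13 ran from 10 to 14 with 1 artery left out and from 9 to 15 otherwise. The share of all genes called higher also moved, from 2.1% to 3.46% and from 2.24% to 7.6%, beside 3.6% in the main fit. Depth of signal limits the dim genes, 9 of which were at the floor in at least 1 artery. Leaving out 1 artery gave, in medium against small plaques, 1 to 2 S phase calls and S phase medians of 0.056 (without medium 1) to 0.34. In large against small plaques it gave 0 to 3 calls in all, 0 to 1 of S phase and 0 to 2 of mitosis. For the slope over 12 arteries it gave 0 to 1 calls in all and of S phase, with medians of 0.26 to 0.61 over all 46 genes and 0.41 to 0.73 over mitosis genes. For the slope over 8 arteries the medians ran from -0.63 to -0.30 over the 46 genes, -0.77 to -0.34 over mitosis and -0.23 to 0.0502 over S phase genes; the last changed sign without medium 1 (0.013) and without large 1 (0.0502). The large against medium S phase median ran from -0.14 to 0.03.

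With log2(value + 0.5) the mitosis medians were 0.40 in medium against small, 0.15 in large against small and 0.24 for the slope over 12 arteries. That slope called 1 gene in all, of S phase. Of all genes, 2.25% had a positive slope that passed there, beside 0.951% in the main fit. With probes above the median level only (24 genes) the mitosis medians were 0.92 in medium against small and 0.75 for that slope. The slope called 1 gene, of S phase, where 4.3% of all genes passed with a positive slope. Large against small called 5 genes, 4 of mitosis, where 5.28% of all genes were called higher, beside 1.91% in the main fit. The S phase median slope over 8 arteries was -0.45. With the probe of highest variance the S phase median of medium against small was 0.11. The mean of a gene's probes gave 1 slope call, of S phase, where 3.08% of all genes were higher in large against small and 2.3% had a positive slope. eBayes with trend and robust gave 5 calls in large against small, 4 of mitosis, and 1 slope call, of S phase. The shares of all genes called higher there were 3.17% and 2.07%. Fitting only the 2 groups compared gave 1 call in large against small, of mitosis, and 0 of S phase. The share of all genes called higher was 1.29% there. In medium against small that fit lost the calls of CDK1 (adjusted p = 0.065) and NDC80 (0.0562). Array weights lost the CDK1 call there (0.0585). Without small 4 and medium 5, whose animal numbers lie apart from the rest, 1 mitosis gene was called in large against small. In that fit 1.05% of all genes were called higher. The square root of area called 2 slopes, 1 of S phase and 1 of mitosis, and the rank of area 1, of S phase. The causes were not tested.

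Replicate numbers recur across groups. Deviations of same-numbered arteries correlated at -0.16 to 0.22, with 4 of 10 pairs over 0.1. Most differently numbered pairs lay below 0.1. Those above it were small 3 with medium 4 (0.228), small 4 with medium 1 (0.141) and medium 4 with large 3 (0.218). Whether arteries of the same number share a step of processing was not tested. With the replicate block, 9 of the 46 genes were called in medium against small plaques, 1 of them of S phase. MCM4, CCNA2, NDC80 and MELK were not called. In large against small 1 mitosis gene was called. The shares of all genes called higher were 2.45% and 1.48% in these comparisons, beside 3.6% and 1.91% in the main fit. The median slope over 8 arteries with the block was -0.92 over all 46 genes and -1.07 over mitosis genes.

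Of the 138 differences of single genes over the 3 group comparisons, 33 took another sign under at least 1 alternative (6 in medium against small, 14 in large against small and 13 in large against medium). None of the 33 was called, and 8 of them moved by at least 1 SE of the difference. With the floor at the 1st percentile BUB1B was 0.33 in large against small and CENPA 0.36 in large against medium. With the floor at the 20th percentile, PCNA was 0 and NUSAP1 0.029 in medium against small. With the probe of highest variance RRM2 was -0.057 in medium and -0.18 in large against small. With 1 artery left out, TPX2 in large against medium ran from -0.41 to 0.21 (without large 1), and NUSAP1 in large against small from -0.35 to 0.36 (without large 2).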
